A study of Mus musculus with 6 samples.

Results

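The 42 genes described here encode the kinases, cyclins, kinesins, kinetochore proteins and checkpoint proteins of mitosis. They are given as a list of names with known roles in cell division, and the rule uses no measured value. All 42 were found among the 55471 genes of the deposited count table, and all 42 were among the 13044 genes expressed highly enough to be tested. The cells are a mouse line of undifferentiated pleomorphic sarcoma (UPS), a soft tissue tumour of mesenchymal character, labelled metastatic in both groups and grown in DMEM with fetal bovine serum. The first group is 3 libraries labelled Setd1a KO, with the genotype Setd1a Knock Out, and the second is 3 libraries labelled Control, with the genotype WT. The titles also hold a suffix that differs between the groups, a number in the Setd1a KO libraries and AAV2 in the control libraries. The labels do not explain it, and since it follows the genotype, the effects of both cannot be told apart. The labels do not say whether the knockout is 1 clone or a pool of cells, nor whether replicates came from separate cultures. P-values therefore measure the spread between these libraries, which may be technical.

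Mitosis is driven by the kinase CDK1 bound to cyclin A or cyclin B, and ends when the anaphase-promoting complex, a ubiquitin ligase with CDC20 as its activator, marks cyclin B and securin for destruction. The spindle assembly checkpoint holds that ligase back until every kinetochore is attached to microtubules, and kinesin motors move the chromosomes and build the midzone at which the cell divides. Most of these genes are transcribed mainly in G2 and M phase, so in a bulk culture their RNA is widely read as a measure of how many cells are dividing. Setd1a encodes a methyltransferase of lysine 4 of histone H3, a mark of active promoters. In bulk RNA, fewer dividing cells and less mitotic RNA per dividing cell cannot be told apart.

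The promoters of the set share short sequence elements. The CHR (cell cycle genes homology region) is bound by the MuvB complexes, which repress such genes in quiescent cells and activate them in G2, and CCAAT boxes are bound by NF-Y. Promoter windows from RefSeq (GRCm38.p6), reaching from 250 bases before to 50 bases after an annotated start, were at hand for 35 of the 42 genes, in 38 windows. The CHR core TTTGAA, sought on both strands, lay in 28 of the 38 windows (73.7%), against 12.1% of the 12339 windows of tested genes and 17.9% of all 32841 windows. Its first base lay within 50 bases of the start in 25 windows of the mitotic genes (65.8%), against 3.06% of the windows of tested genes. CCAAT, sought on either strand, can share an end letter with the CHR core but neither motif holds the other. It was found in 76.3% of the windows of the mitotic genes and in 38.2% of those of tested genes. At least 2 CCAAT boxes were found in 50% of the mitotic windows, against 14.3% for tested genes, and both motifs in 63.2%, against 4.88%. Windows of 1 gene can overlap, 36 of the 38 starts lay within 500 bases of the gene's 5′ end in GENCODE M21, and a match describes letters, not binding. Stretches of 140 bases, 120 before the annotated start and 20 after it, are shown for 4 genes to let the layout be compared, with capitals for TTTGAA and CCAAT or their reverse complements TTCAAA and ATTGG, 5′ to 3′ on the strand of the gene.
Ccnb2, chr9:70421535-70421674, minus strand: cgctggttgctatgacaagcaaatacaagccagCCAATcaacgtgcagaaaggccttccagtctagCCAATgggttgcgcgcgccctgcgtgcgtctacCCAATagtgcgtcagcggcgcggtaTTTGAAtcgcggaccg
Kif23, chr9:61946780-61946919, minus strand: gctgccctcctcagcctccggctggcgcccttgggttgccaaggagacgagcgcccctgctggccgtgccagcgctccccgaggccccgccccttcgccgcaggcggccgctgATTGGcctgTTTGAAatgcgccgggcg
Prc1, chr7:80294331-80294470, plus strand: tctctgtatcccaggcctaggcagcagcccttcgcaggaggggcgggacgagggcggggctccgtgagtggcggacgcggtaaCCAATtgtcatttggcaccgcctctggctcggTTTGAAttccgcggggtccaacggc
Mki67, chr7:135716360-135716499, minus strand: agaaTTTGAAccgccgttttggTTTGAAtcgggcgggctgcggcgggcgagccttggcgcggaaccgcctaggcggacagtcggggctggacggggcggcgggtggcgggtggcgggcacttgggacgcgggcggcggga
In Ccnb2, Kif23 and Prc1 the CHR core sat beside the start with CCAAT upstream of it, 3 boxes in Ccnb2 and 1 in each of the others. Mki67 differed: its 2 cores lay at bases -116 and -98 and its CCAAT boxes lay outside the stretch shown.

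**Figure D1:**
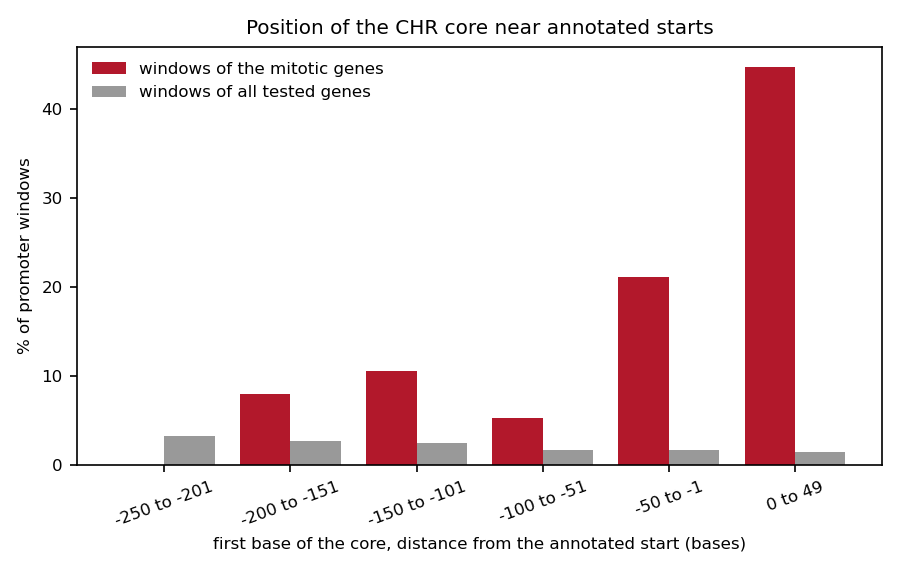
Share of promoter windows (%) whose CHR core TTTGAA, on either strand, begins in each 50-base interval relative to the annotated start, for the 38 windows of the mitotic genes and the 12339 windows of tested genes; a window with several cores can count in more than 1 interval. A core begins in the 50 bases from the start onward in 44.7% of the mitotic windows. The share is 1.46% in the windows of tested genes, the mitotic ones included.

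Setd1a itself was measured at 53.2, 68.7 and 56.3 CPM, counts scaled to the library total, in the knockout libraries, against 71.0, 75.3 and 73.5 CPM in the control libraries. The groups did not overlap. The quasi-likelihood test of edgeR gave a log2 fold change of -0.30 ± 0.12 (SE) and, adjusted over all genes tested, p = 0.426, while an exact two-sided permutation test of these values gave p = 0.1, the smallest that 3 libraries against 3 allow. Gm49388, annotated on the same strand, overlaps 51.8% of Setd1a's exonic sequence, and reads in the shared part cannot be told apart. These RNA values do not show a loss of Setd1a, and the knockout is known from the labels only. Knockout cells and knockout libraries are named here after that label. Library totals lay between 17749533 and 18272622 counts. All 12 mesenchymal markers were tested, and their summed level was 7687 to 9257 CPM in knockout libraries and 9386 to 9401 CPM in control libraries. The 14 macrophage markers summed to 21.2 to 29.1 CPM in knockout and 21.7 to 23.5 CPM in control libraries. Of these, 3 passed the filter on low counts, and each sum takes in every marker listed, tested or not. The endothelial markers summed to 30.9 to 39.5 CPM in knockout and 26.9 to 32.1 CPM in control libraries (3 of 11 tested), and the epithelial markers to 50.4 to 96.8 CPM in knockout and 53.2 to 91.6 CPM in control libraries (4 of 10 tested). The epithelial keratin gene Krt19 had 3.91, 7.33 and 9.07 CPM in knockout libraries, against 2.05, 4.19 and 5.21 CPM in control libraries. It was called higher with the replicate number as a block (fold 1.79, edgeR adjusted p = 0.0327) but not without it (adjusted p = 0.485). Krt19 was the only epithelial marker called. Of the 4 tested, 3 had a log2 fold change above 0 and 1 below it. Krt8 stood at 0.32 on the log2 scale. Krt18, with 39.4 to 70.1 CPM in knockout and 42.8 to 76.0 CPM in control libraries, stood at -0.11. None of 10 lymphocyte markers passed the filter, and 7 of them were at 0 in every library. The part of other cells, of the higher Krt19 or of the lower mesenchymal sum in the mitotic values was not tested.

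The fitted levels of the mitotic genes in Setd1a knockout cells were between 0.807 times (Ccnb2) and 1.09 times (Bub1) those in control cells. None of the 42 passed the adjusted p threshold of 0.05 in either direction in edgeR's test without pairing, in which 0% of the 13044 genes tested were called higher and 0% lower; 1 of the 42, Ccnb2, had an unadjusted p under 0.05, as had 718 of all genes towards higher and 588 towards lower values. The 95% interval of every one of the 42 lay within a change of 2-fold either way, and that of 41 within 1.5-fold. The genes were well covered: each had between 430 and 15150 counts in each library, and 37 of the 42 stood at or above the 75th percentile of tested genes by CPM.

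More genes of the set lay below 0 than above it. The log2 fold change was below 0 in 34 of the 42 genes (81.0%), against 49.8% of all genes tested and 55.2% of the 6162 tested genes at or above the level of the lowest member. The median over the set was -0.05 on the log2 scale, against 0.00 over all genes tested and -0.02 over those 6162 genes. Per replicate number, knockout against the control of the same number, the median was -0.06, -0.12 and -0.04, against 0.01, -0.02 and -0.06 over the 6162 tested genes at or above the level of the lowest member. The genes lower in knockout numbered 31, 36 and 22 of the 42, so the set leaned lower than those genes in numbers 1 and 2 but not in number 3, where 3796 of the 6162 were lower. In 13 of the 42 genes (31.0%) all 3 knockout libraries lay below the control of their number. The same held for 1449 of the 6162 genes (23.5%) and for 2814 of the 13044 genes tested (21.6%). In 1 gene of the set, Bub1, all 3 lay above it, against 917 of the 6162 and 2596 of the 13044. The genes of the set are coregulated through the cell cycle and are not independent, and the count of 34 carries no test. Genes with and without a CHR core lay close together: the median log2 fold change was -0.05 in the 25 genes with a core and -0.04 in the 10 with a window and no core, with 21 and 6 below 0; the difference was not tested.

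With the replicate number as a block, edgeR called 1.43% of all genes higher and 0.851% lower, and again none of the 42. The smallest adjusted p in the set was 0.0662, for Ccnb2. Only 3 genes, Ccnb2, Ccna2 and Kif2c, had an unadjusted p under 0.05 with the block, all towards lower values. Of the 13044 genes tested, 1297 had it towards higher and 1255 towards lower values. A count of 3 in 42 is no larger a share than that background. DESeq2 without pairing called 0.636% of genes higher and 0.299% lower and none of the set. There 1 gene of the set had an unadjusted p under 0.05, against 572 of all genes towards higher and 534 towards lower values. In limma-voom none of the set was called, also with 1 gene at an unadjusted p under 0.05, against 676 and 597 of all genes. Over 18 alternative analyses a member was called in 1, which combined the block with offsets for transcript length and GC content: there 2.71% of genes were called higher and 2.41% lower, and Ccnb2 alone of the set was called, at a log2 fold change of -0.28 with edgeR's adjusted p of 0.038.

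**Figure D2:**
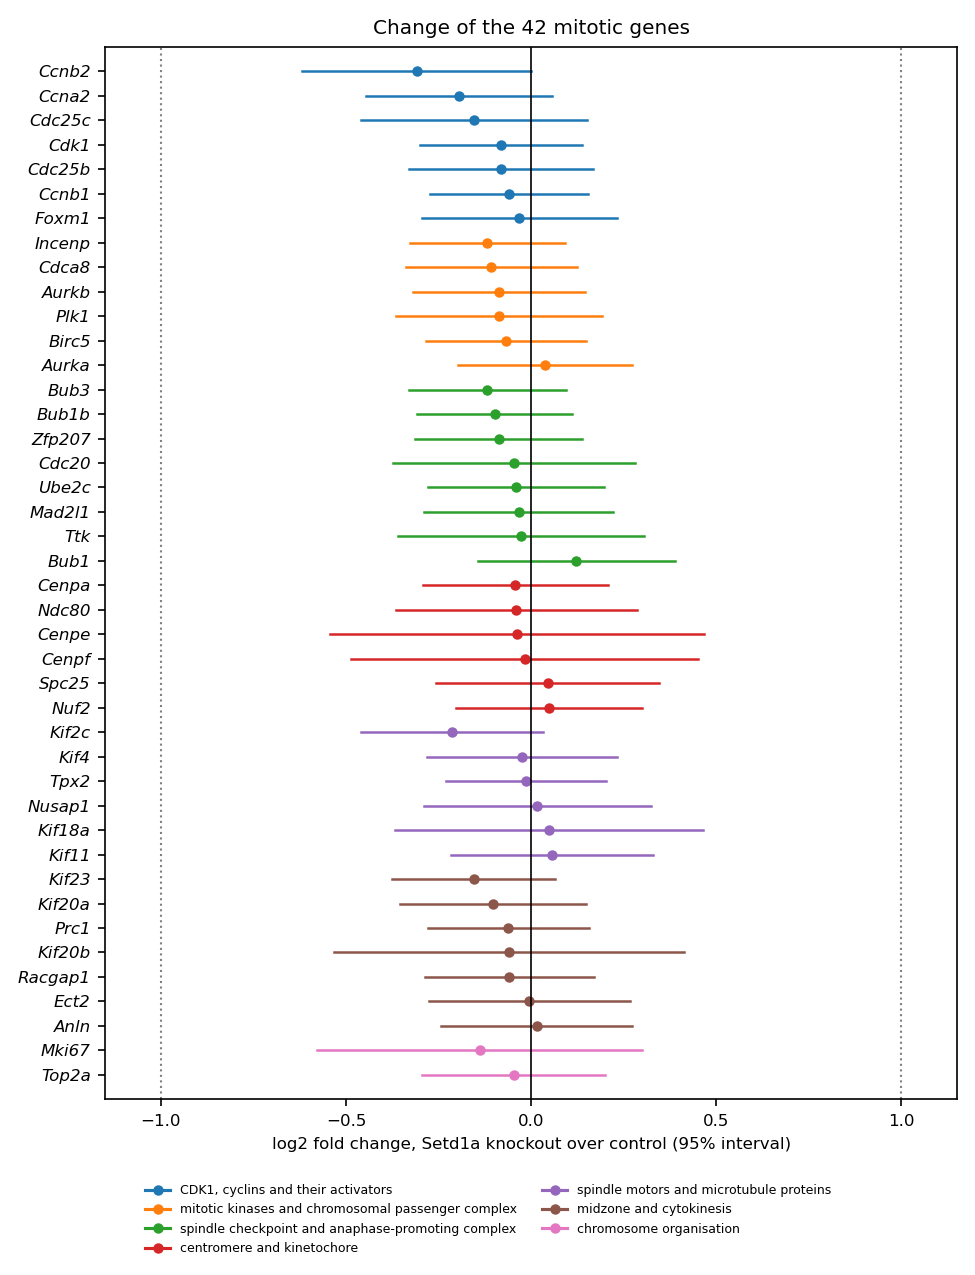
Log2 fold change of each of the 42 mitotic genes, knockout over control, with 95% intervals from edgeR's test without pairing (3 libraries per group), coloured by role; dotted lines mark a change of 2-fold. All intervals lie between the dotted lines, and most points lie a little left of 0.

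Cdk1, the cyclin genes, the CDC25 activators of CDK1 and Foxm1 all had log2 fold changes below 0 (7 of 7, median -0.08), and none passed the test. Ccnb2, which encodes cyclin B2, had 80.5, 85.9 and 113 CPM in knockout libraries, against 109, 109.8 and 127 CPM in control libraries. Knockout replicates 1 and 2 were lower than every control library, while knockout replicate 3 lay between control libraries. Its log2 fold change was -0.31 ± 0.14 (SE), a fold of 0.807 with a 95% interval of 0.651 to 0.9996 and an adjusted p of 0.498 in edgeR's test. Without knockout replicate 3 the log2 value was -0.47, and edgeR's adjusted p was then 0.207; over the 18 alternatives the log2 value of Ccnb2 lay between -0.47 and -0.20 and its adjusted p between 0.0377 and 0.860. Ccna2, cyclin A2, which acts in S phase and on entry to mitosis, had 389, 399 and 348 CPM in knockout libraries, against 432, 472 and 395 CPM in control libraries. Its groups overlapped by a few CPM, and its log2 fold change was -0.19 ± 0.11 (SE; edgeR adjusted p = 0.631). Cdc25c, a phosphatase that removes the inhibitory phosphates of CDK1, had 27.3, 23.9 and 31.5 CPM in knockout libraries, against 28.7, 29.4 and 33.9 CPM in control libraries, a log2 fold change of -0.15 ± 0.14 (SE). The kinase gene Cdk1 itself (-0.08), its phosphatase Cdc25b (-0.08), the main mitotic cyclin gene Ccnb1 (-0.06) and Foxm1, a transcription factor of G2 genes (-0.03), lay closer to 0 on the same scale. Ccnb1 and Ccnb2 each have an annotated pseudogene named after them. Of the exonic bases of Ccna2, 12.5% are shared with Exosc9, and of those of Cdc25c, 12.7% with Gm3550, both on the opposite strand. In these genes reads that match a copy may be miscounted, and so may reads of the shared bases if the strand was ignored. The strand setting of the counting is not given.

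Of the mitotic kinases and the chromosomal passenger complex, 5 of 6 genes were below 0, with a median of -0.09, and none passed the test. Incenp, the scaffold of the passenger complex, had 167, 165 and 156 CPM in knockout libraries, against 174, 174 and 182 CPM in control libraries. It was 1 of the 3 genes of the set whose knockout libraries all lay below the control libraries; across all genes tested, 7.77% had such a gap towards lower and 7.49% towards higher values, and none of the set had it towards higher. A count of 3 in 42 is no larger a share than that background. Its log2 fold change was nevertheless small, -0.12 ± 0.09 (SE; edgeR adjusted p = 0.780). Cdca8, which encodes borealin, had 117, 104 and 118 CPM in knockout libraries and 125, 112 and 128 CPM in control libraries (log2 fold change -0.11 ± 0.10, SE). Aurkb, the kinase of the complex, had 77.4, 85.4 and 81.1 CPM in knockout libraries and 78.2, 90.3 and 90.6 CPM in control libraries (-0.09 ± 0.10, SE). In these 2 genes the ranges of the groups overlapped, though each knockout library was below the control of the same number. Birc5, survivin, the remaining member of the complex, had a log2 fold change of -0.07, and Plk1, polo-like kinase 1, of -0.09. Aurka, the centrosomal Aurora kinase, was the exception in sign at 0.04.

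Of the spindle checkpoint and anaphase-promoting complex genes, 7 of 8 were below 0, with a median of -0.04 on the log2 scale, and none passed the test. Bub3 and Bub1b, whose product is known as BubR1, encode parts of the checkpoint complex that binds CDC20. Bub3 had 198, 216 and 204 CPM in knockout libraries, against 227, 224 and 219 CPM in control libraries, a log2 fold change of -0.12 ± 0.10 (SE; edgeR adjusted p = 0.782). Bub1b had 171, 167 and 166 CPM in knockout libraries and 173, 188 and 179 CPM in control libraries, a log2 fold change of -0.10 ± 0.09 (SE). In both genes the knockout libraries lay below the control libraries, with a gap of a few CPM. Zfp207 encodes BuGZ, the protein that binds BUB3 and helps load it on kinetochores; it had 324, 348 and 368 CPM in knockout libraries, against 376, 375 and 355 CPM in control libraries, and its groups overlapped (log2 fold change -0.09 ± 0.10, SE). Bub1, the kinetochore kinase of the checkpoint, had the highest log2 fold change of the set, 0.12 ± 0.12 (SE). Its values were 102, 101 and 101 CPM in knockout libraries, against 101, 101 and 77.6 CPM in control libraries, so only control replicate 3 stood apart. With control replicate 3 left out, the log2 fold change of Bub1 was 0.01. The checkpoint gene Mad2l1 (-0.03) and the kinase gene Ttk, also called Mps1 (-0.03), lay near 0 on the log2 scale, as did Cdc20 (-0.05) and Ube2c (-0.04), the ubiquitin-conjugating enzyme of the anaphase-promoting complex. Per kilobase of exon Ube2c had the highest level of the set, a mean of 147 CPM per kilobase over the 6 libraries, with 355, 412 and 365 CPM in knockout and 368, 404 and 392 CPM in control libraries. Of its exonic bases, 22.8% are shared with Tnnc2, on the opposite strand.

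Centromere and kinetochore genes had a median log2 fold change of -0.03, with 4 of 6 below 0. Nuf2, a subunit of the NDC80 complex that grips microtubules, had 77.4, 67.1 and 80.9 CPM in knockout and 79.2, 68.2 and 70.6 CPM in control libraries (log2 fold change 0.05 ± 0.11, SE). Cenpa, the histone H3 variant of centromeres, had 113, 116 and 136 CPM in knockout and 116, 124 and 135 CPM in control libraries (-0.04 ± 0.11, SE). Spc25, another subunit of the NDC80 complex, had 37.5, 31.8 and 43.5 CPM in knockout and 35.1, 39.2 and 34.97 CPM in control libraries (0.04 ± 0.14, SE). In all 3 genes the groups overlapped widely, and Ndc80 had a log2 fold change of -0.04. Cenpe, the kinetochore kinesin CENP-E, and Cenpf are taken up with control replicate 3.

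Spindle motors and microtubule proteins were evenly placed, with 3 of 6 below 0 and a median of 0.00 on the log2 scale. Kif2c, the microtubule depolymerase MCAK that corrects faulty attachments, was the lowest. It had 93.4, 99.9 and 105 CPM in knockout libraries, against 102, 123 and 121 CPM in control libraries, with an overlap only between knockout replicate 3 and control replicate 1. Its log2 fold change was -0.21 ± 0.11 (SE; edgeR adjusted p = 0.562). Kif11, the motor Eg5 that pushes spindle poles apart, had 146, 124 and 134 CPM in knockout and 137, 142 and 110.0 CPM in control libraries (log2 fold change 0.06 ± 0.12, SE). Kif18a, a motor that limits the length of kinetochore microtubules, had the lowest level of the set per kilobase of exon, a mean of 3.94 CPM per kilobase. It had 44.4, 35.2 and 38.6 CPM in knockout and 47.9, 39.2 and 27.3 CPM in control libraries. Without control replicate 3 the log2 values of both motors were below 0, at -0.05 for Kif11 and -0.14 for Kif18a. Tpx2, the activator of Aurora A on the spindle (-0.01), Kif4 (-0.02) and Nusap1 (0.02) lay at 0 within their error. Kif4 has an annotated pseudogene named after it, and 15.1% of its exonic bases are shared with Pdzd11, on the opposite strand.

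The midzone and cytokinesis genes had a median log2 fold change of -0.06, with 6 of 7 below 0 and none past the test. Kif23, the MKLP1 kinesin of the centralspindlin complex, had 161, 148 and 154 CPM in knockout libraries, against 175, 179.6 and 159.8 CPM in control libraries, a log2 fold change of -0.16 ± 0.10 (SE; edgeR adjusted p = 0.687). Only knockout replicate 1 reached the lowest control library. Kif20a, the MKLP2 kinesin that carries the passenger complex to the midzone, had 321, 347 and 299 CPM in knockout and 335, 382 and 320.5 CPM in control libraries (-0.10 ± 0.11, SE). Prc1, which bundles midzone microtubules, had 257, 268 and 264 CPM in knockout and 269.6, 292 and 263 CPM in control libraries (-0.06 ± 0.10, SE). The groups of both genes overlapped. Racgap1, the partner of Kif23 (-0.06), Ect2, the exchange factor that activates RhoA (-0.01), and Anln, the scaffold anillin (0.02), had log2 fold changes smaller than their errors. For Kif20a 29.3% of the exonic bases are shared with Cdc23, and for Prc1 11.1% with Rccd1, both on the opposite strand.

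Top2a, the topoisomerase that untangles sister chromatids, had 479.6, 459 and 471 CPM in knockout and 520.3, 506 and 430.4 CPM in control libraries, a log2 fold change of -0.05 ± 0.11 (SE). Mki67, which encodes the proliferation marker Ki-67, a coat of mitotic chromosomes, had 771, 605 and 557 CPM in knockout libraries, against 838, 796 and 495 CPM in control libraries. Its log2 fold change was -0.14 ± 0.20 (SE; edgeR adjusted p = 0.925), and the 95% interval of the fold reached from 0.670 to 1.23. The spread of Mki67 within each group was larger than the difference between the groups.

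**Figure D3:**
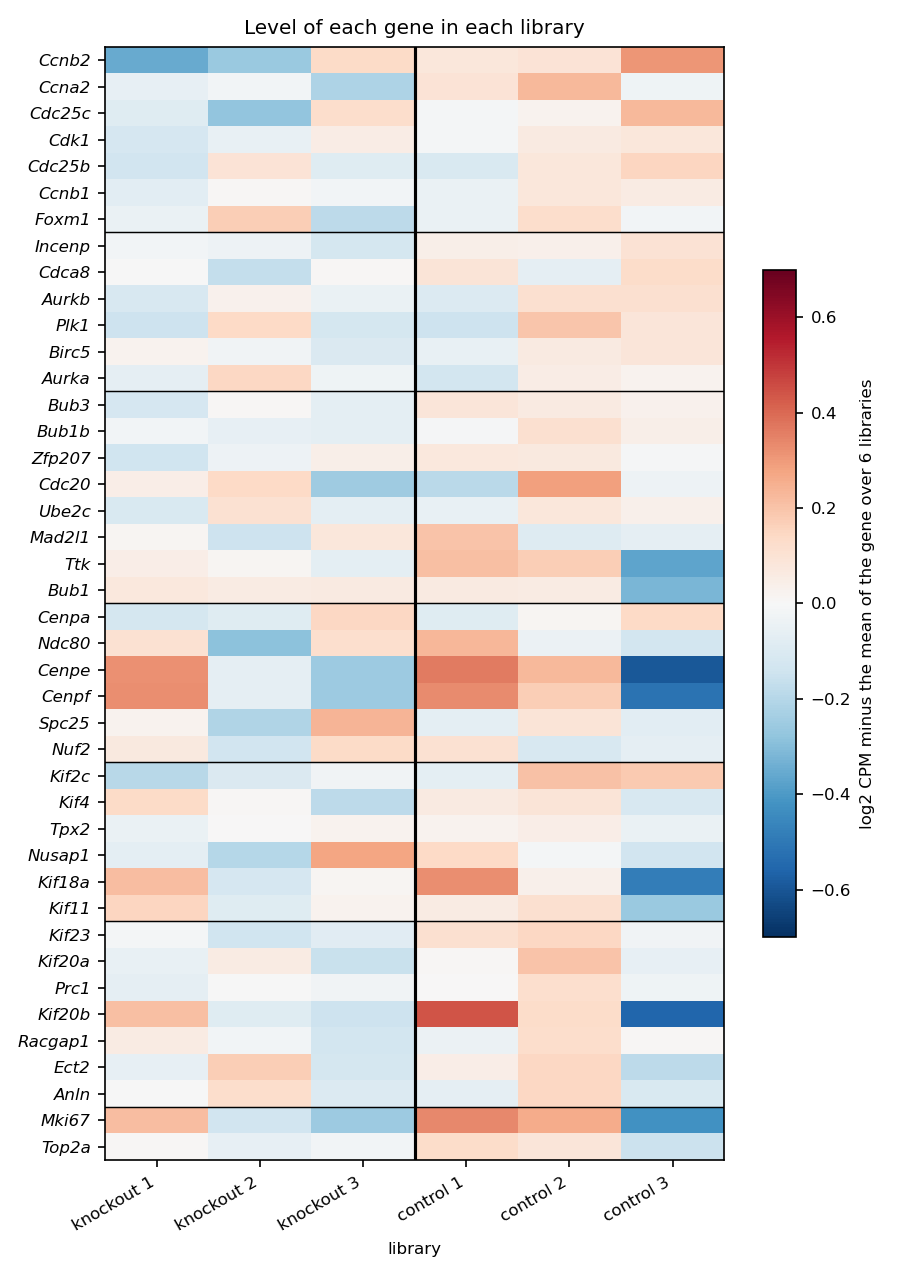
Level of each of the 42 mitotic genes in each of the 6 libraries, as log2 CPM minus the mean of that gene over the libraries, knockout libraries left of the line and control libraries right of it, with genes grouped by role. Control replicate 3 is dark blue for Cenpe, Cenpf, Kif20b, Kif18a, Mki67 and Ttk, while no library is low across all genes.

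For several genes of the set, replicates of 1 group differed more than the groups did. In control replicate 3 the level of 6 genes was more than 1.3 times below the mean of the other controls: the ratio was 0.540 for Cenpe, 0.558 for Kif20b, 0.588 for Cenpf, 0.607 for Mki67, 0.632 for Kif18a and 0.678 for Ttk. Among all genes tested, 1318 (10.1%) were that far below. Cenpe had 198, 152 and 133 CPM in knockout libraries, against 205, 186 and 105 CPM in control libraries. Cenpf had 162, 124 and 109 CPM in knockout and 163, 146 and 90.7 CPM in control libraries, and Kif20b, a kinesin of late cytokinesis, had 98.1, 80.0 and 76.7 CPM in knockout and 115, 92.7 and 57.6 CPM in control libraries. In these 3 genes and in Mki67 replicate 3 was the lowest of both groups, and it was lower in control than in knockout cells. Ttk had 68.3, 66.6 and 63.0 CPM in knockout and 76.4, 74.4 and 51.1 CPM in control libraries. These genes were singled out after their values were seen.

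As a group the 6 genes were longer and poorer in GC than the others, though Ttk and Kif18a, at 2490 and 2658 nucleotides of coding sequence, are shorter than several of the others. The median coding length of the 6 was 6368 nucleotides, against 1613 in the other 36 genes of the set, and the median GC content was 42.98%, against 47.82%. A gradient with length and GC ran through all genes tested in control replicate 3. In the 34 genes with more than 6 kb of coding sequence and under 43% GC, control replicate 3 lay at a median of -0.59 on the log2 scale relative to the other controls. In the 3295 genes under 1.5 kb and over 50% GC it lay at 0.11. The median log2 fold change, knockout over control, was 0.13 in those 34 genes and -0.03 in those 3295. Knockout replicate 3 shared the relation to length, while its relation to GC ran the other way, with lower values over 50% than under 43% GC. Relative to the other knockouts it lay at -0.33 in genes over 6 kb and under 43% GC. In those over 6 kb and over 50% GC it lay at -0.37. In genes under 1.5 kb it lay at 0.16 under 43% GC and at 0.05 over 50% GC. Of the 42 mitotic genes, 9 had their highest control value in control replicate 3, among them Ccnb2, Cdc25c and Aurkb, while 22 had their lowest there. The part of RNA quality, library preparation or growth in this gradient was not tested.

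**Figure D4:**
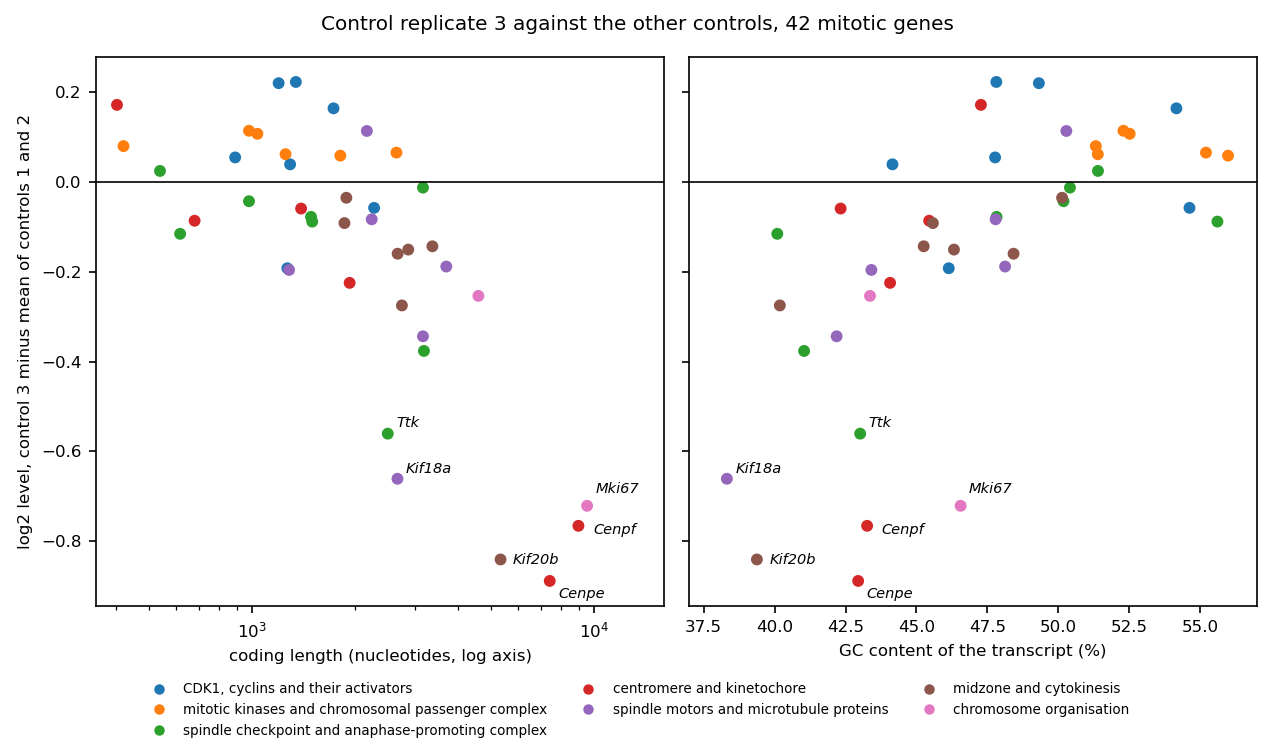
Log2 level of control replicate 3 minus the mean log2 level of controls 1 and 2 for each of the 42 mitotic genes, against coding length (left, log axis, nucleotides) and GC content of the transcript (right, %), coloured by role. The 6 named genes lie below the rest, and the longest of the set, Mki67, Cenpf, Cenpe and Kif20b, are among them.

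Since the 6 genes were picked for their low values in control replicate 3, their fold changes without it are a description only. Their median log2 fold change was then -0.26, against -0.03 with all libraries, while that of the other 36 genes was -0.07, against -0.06. Without that library the log2 value was -0.34 for Mki67, -0.29 for Kif20b, -0.28 for Cenpe, -0.23 for Cenpf, -0.19 for Ttk and -0.14 for Kif18a, and none of the 6 was called by edgeR (lowest adjusted p 0.673). For the whole set the median was then -0.08 with 37 genes below 0, and with replicate 3 of both groups left out it was -0.11 with 38 below 0. Without control replicate 2, in which mitotic genes were high, it was -0.01 with 26 below 0. The lean of the set towards lower values in knockout cells thus changed in size with single control libraries, while its sign stayed below 0 in these 3 repeats.

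The other genes of division in the table were described by lists of their own, and their medians also lay close to 0. Of 35 other kinetochore and centromere genes, 20 were below 0 with a median log2 fold change of -0.05, and none passed edgeR's test without pairing, with the block, or DESeq2; 2 had an unadjusted p under 0.05 without pairing. The lowest of them, Cenpm, had 7.76, 12.3 and 9.13 CPM in knockout libraries, against 14.2, 14.6 and 15.0 CPM in control libraries, with no overlap. Its log2 fold change was -0.58 ± 0.18 (SE; edgeR adjusted p = 0.328), and with the block edgeR's adjusted p was 0.0592. Zwilch, a part of the complex that brings dynein to kinetochores, stood at -0.35 ± 0.12 (SE). Of 22 other checkpoint and anaphase-promoting complex genes, 14 were below 0 (median -0.03, none called, 1 at an unadjusted p under 0.05), the lowest being the subunit gene Anapc13 at -0.50 ± 0.17 (SE). Of 51 other spindle and cytokinesis genes, 37 were below 0 (median -0.06, none called, 2 at an unadjusted p under 0.05), with Haus1, an augmin subunit, at -0.49 ± 0.16 (SE) and the kinase gene Melk at -0.22 ± 0.10 (SE).

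Among 19 condensin and cohesin genes, 10 were below 0 and the median was -0.01. Ncaph2, a subunit of condensin II, was the exception: it had 107, 129 and 129 CPM in knockout libraries, against 161, 173 and 175 CPM in control libraries, and the groups stood well apart. Its log2 fold change was -0.48 ± 0.11 (SE; edgeR adjusted p = 0.194) without pairing, and it was called lower with the block, at -0.48 and an edgeR adjusted p of 0.0228, and by DESeq2. The condensin I subunit gene Ncapd2 stood at -0.18 ± 0.12 (SE) and the cohesin gene Smc1a at -0.21 ± 0.13 (SE).

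The regulators upstream of the mitotic genes did not pass a test either. Of 25 regulators, such as the MuvB subunits, the E2F, RB and NF-Y families and p53, 14 were below 0 (median -0.01). None was called, and none had an unadjusted p under 0.05 in edgeR's test without pairing, in DESeq2 or in limma-voom. With the block 1 had, towards higher values. The smallest raw p without pairing belonged to Trp53, which encodes p53. It had 8.43, 10.8 and 8.30 CPM in knockout libraries, against 7.36, 7.93 and 6.33 CPM in control libraries, with no overlap. Its log2 fold change was 0.35 ± 0.18 (SE), with an edgeR adjusted p of 0.558 without pairing and 0.189 with the block. Of 15 G1 and S phase cyclins, kinases and inhibitors, 9 were below 0 (median -0.03), and none was called. Cdkn1a, the p21 inhibitor through which p53 represses mitotic genes, had 17.4, 23.4 and 45.4 CPM in knockout libraries, against 17.2, 18.3 and 31.7 CPM in control libraries. Replicate 3 was the highest of both groups, and the log2 fold change was 0.36 ± 0.34 (SE). Cdk4 had 604, 644 and 571 CPM in knockout and 664, 753 and 716 CPM in control libraries, with no overlap (log2 fold change -0.23 ± 0.11, SE), and Cdk6, the other kinase of cyclin D, stood at 0.26 ± 0.13 (SE). Of 44 S phase genes, 33 were below 0 with a median of -0.04, close to the median of the mitotic genes, and none was called; the lowest raw p belonged to Uhrf1, whose product recognises hemimethylated DNA (-0.26 ± 0.12, SE).

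**Figure D5:**
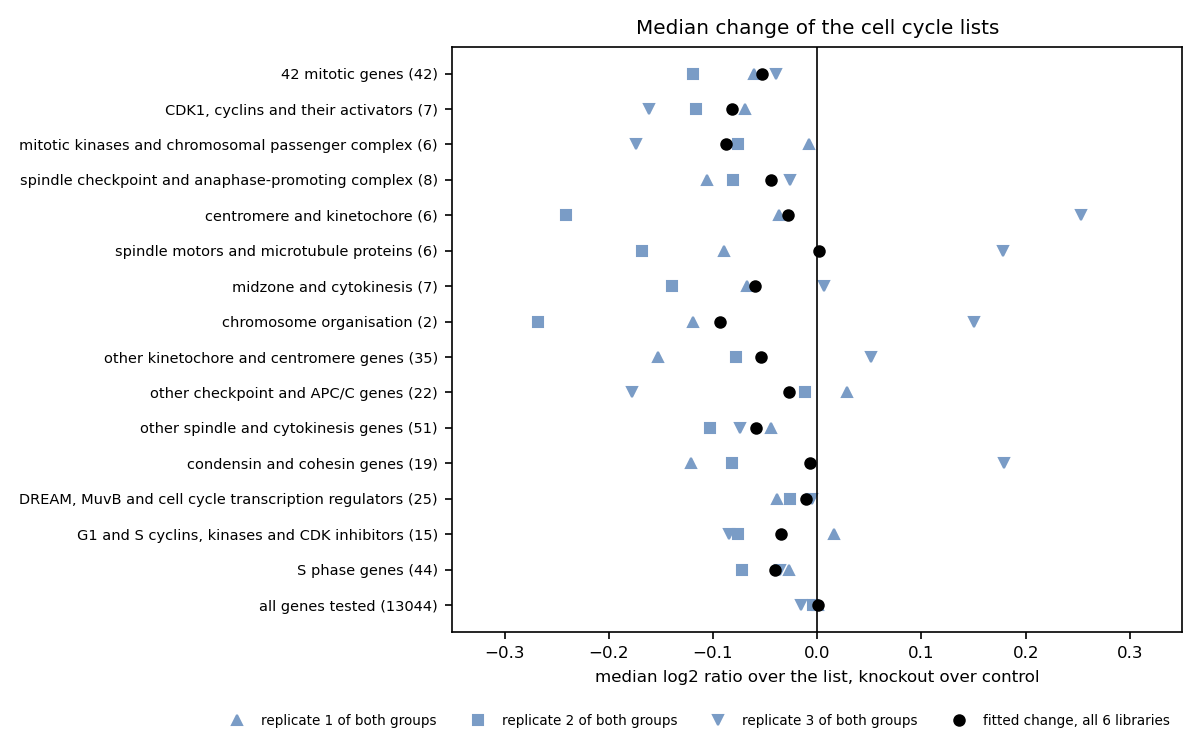
Median log2 ratio, knockout over control, of the 42 mitotic genes, their role groups, the other cell cycle lists and all 13044 genes tested, with the number of genes in brackets; black points are fitted changes over all 6 libraries and blue symbols the ratio of the libraries with the same replicate number. Centromere, motor and chromosome genes spread most, from -0.24 for replicate 2 to 0.25 for replicate 3 among the centromere and kinetochore genes.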

How the data were processed

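Total RNA of a mouse sarcoma line was sequenced in 6 libraries, 3 labelled Setd1a KO and 3 labelled Control, with groups and replicate numbers taken from the sample titles. The authors deposited a single count table with 1 row per Ensembl gene, in whole reads that had not been normalized. The submitters' processing notes name the tools STAR, featureCounts and DESeq and the build mm10. Their versions, the annotation, the strand setting and the treatment of reads with several matches: not given in the sources used here. GENCODE M21 (GRCm38) gave symbols for 55230 of the 55471 identifiers; 241 did not match.

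The test was run in edgeR 4.0.16 under R 4.3.3. It used TMM factors, filterByExpr (13044 genes kept), the two-sided quasi-likelihood test without pairing, and Benjamini-Hochberg adjustment over all genes tested at a threshold of 0.05. CPM use library totals multiplied by their TMM factors. A 95% interval is the log2 fold change with its SE times the t quantile of the test. The biological coefficient of variation was 0.143. Every mitotic gene had at least 430 counts in each library (totals of 17749533 to 18272622), so counting error was small beside that coefficient of variation. For single genes the libraries of a group could lie closer together than that, as for Bub1 in knockout libraries (log2 SD 0.0078). Intervals cover the spread between these libraries only. No pair of replicates agreed within sampling noise, with a chi-square per degree of freedom of at least 21.6. The steps were tested on simulated counts.

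Libraries of the same replicate number deviated together from their group means, with correlations of 0.15, 0.464 and 0.383, all above the limit of 0.1 set for treating numbers as pairs. The pairing comes from the data, with nothing in the labels on what a number marks, and with the block the coefficient of variation was 0.096. Alternatives were the replicate block, RLE scaling, no filter, a minimum mean of 5 CPM, DESeq2 1.42.0, limma-voom (limma 3.58.1) and each library or pair left out; leaving out both libraries numbered 3 and offsets over 25 bins of transcript length and GC were added after seeing the data. The members, lists and tests were chosen with earlier results of these data known. Values per library are given for up to 3 genes of each role group with the smallest raw p without pairing, for the genes with the highest and lowest level per kilobase, and for Bub3 and Zfp207; of each other list up to 3 genes by the same rule, and Cdkn1a, could be named. Cenpe, Cenpf, Kif20b and Ttk were added after their values were seen. Promoters were to be those of the 4 genes with the smallest raw p among genes with a CHR core; Kif2c, Bub3, Bub1b, Cdca8, Cdk1 and Plk1 were passed over because the stretch would have held more than 30 bases downstream of the gene's 5′ end or no core. Protein sequences were not used here.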

Additional observations from a re-analysis of the deposited data

How the results depend on the processing

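Of 756 log2 fold changes of the 42 mitotic genes over 18 alternatives, 667 kept their sign and their side of the threshold, 88 changed sign without being called, and 1, Ccnb2 with length and GC offsets and the replicate block, passed the threshold (-0.28). The cause of these changes was not tested. Of the genes, 19 never changed sign. With the replicate block, 187 genes were called higher and 111 lower over the whole table. Of the mitotic genes, 33 were then below 0 with a median of -0.04, and Cenpf changed sign, to 0.0040. The block alone changed no call in the set. DESeq2 called 83 genes higher and 39 lower, no filter on low counts gave 62 and 12, and offsets with the block gave 353 and 315, with 1 mitotic gene called lower; Setd1a was then also called (log2 -0.34, edgeR adjusted p 0.0435). With single libraries or pairs left out, between 0 and 507 genes were called higher and between 0 and 207 lower, none of them mitotic, and the median log2 of the set lay between -0.11 and -0.0048.

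Sign changes outside those repeats were 0.0059 for Cenpf with limma-voom, 0.0017 for Ect2 at a minimum mean of 5 CPM, and, with length and GC offsets, 0.0009 for Ube2c, -0.0114 for Kif11 and -0.0069 for Nusap1, the last pair both at -0.0118 with the block too. With libraries or pairs left out, the log2 fold changes that crossed 0 ranged as follows: Cenpf from -0.23 to 0.15, Cenpe from -0.28 to 0.16, Kif20b from -0.29 to 0.17, Ttk from -0.19 to 0.085, Mki67 from -0.34 to 0.039 and Kif18a from -0.14 to 0.24. Kif11 ranged from -0.059 to 0.21, Nusap1 from -0.21 to 0.12, Nuf2 from -0.040 to 0.13, Spc25 from -0.11 to 0.22, Ndc80 from -0.20 to 0.092 and Cenpa from -0.13 to 0.018. Ect2 ranged from -0.093 to 0.074, Anln from -0.036 to 0.10, Kif4 from -0.093 to 0.055, Tpx2 from -0.067 to 0.017, Top2a from -0.14 to 0.022 and Bub1 from -0.0028 to 0.21. Aurka ranged from -0.021 to 0.085, Mad2l1 from -0.13 to 0.062, Foxm1 from -0.12 to 0.046, Cdc20 from -0.18 to 0.11 and Ube2c from -0.10 to 0.0078. With 3 libraries a group, a shift as small as the median of the set is below what the intervals of single genes resolve.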
